A study of Homo sapiens with 12 samples.

Results

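The genes described here are 40 neighbouring genes near 16q22.1, on the long arm of human chromosome 16, out of 63086 genes measured by RNA-seq in MIA PaCa-2, a cell line from a human pancreatic carcinoma. They were chosen by gene symbol from a list that had been drawn up with their levels in these same libraries in view, because their RNA levels had shifted together between cell lines. Their differences between lines are therefore given as descriptions, with no test. All 40 symbols were found in the table. The genes ran from RANBP10 to ST3GAL2 over 2.72 Mb of the build GRCh38 (chr16:67723070-70439237), an interval in which the table held 134 genes, 58 of them protein-coding. A mean of at least 10 normalised counts over the 12 libraries was reached by 37 of the 40 genes, and these 37 are summarised below. The remaining 3 were NRN1L, which had 0 reads in all 12 libraries, DPEP2, with 4 reads in WT replicate 3 and 0 elsewhere, and CHTF8, with 2 to 17 reads per library. The means on either side of that minimum were 9.09 for CHTF8 and 11.3 for SMPD3.

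The study looked for transcripts whose level depends on TIMP1, which encodes a secreted inhibitor of matrix metalloproteinases. It compared 4 lines with 3 biological replicates each, all grown in the same medium with foetal calf serum. WT cells were not manipulated, and the CRISPR Control line had been through the editing procedure but carried only a silent change in TIMP1. TIMP1 KO 1 and TIMP1 KO 2 (KO 1 and KO 2) are knockout clones of the same gene, cut at exon 4. KO 1 and KO 2 are together called TIMP1-deficient, and WT and CRISPR Control TIMP1-competent. Each knockout line is 1 clone, so that an effect of TIMP1 loss and a difference that arose while a clone was derived cannot be told apart within a line.

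MIA PaCa-2 is an epithelial tumour line with mesenchymal traits. All 6 epithelial markers examined (KRT8, KRT18, KRT19, EPCAM, CDH1 and MUC1) and both mesenchymal markers (VIM and ZEB1) were above the minimum. The 7 markers of blood, endothelium and normal pancreas (PTPRC, CD3E, LYZ, PECAM1, VWF, INS and PRSS1) were all below it, with INS at 0 throughout. VWF was only just below, at a mean of 9.22. PECAM1 had line means of 11.3 in CRISPR Control and 13.1 in KO 2, against 2.06 in WT and 0 in KO 1. The libraries held 26908701 to 36093563 reads in genes. The normalised counts of TIMP1 itself were 3837, 3290.2 and 3532 for WT and 2285, 2826 and 2959 for CRISPR Control, against 1562, 1624 and 1613 for KO 1 and 1136, 1192 and 1155 for KO 2. Its RNA was thus lower in the knockout clones than in the competent lines but was still present in all of their libraries.

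Neighbouring genes on a chromosome share a stretch of DNA and chromatin but usually have promoters and functions of their own. The 16q22 stretch is gene-dense. It holds a cluster of cadherin genes, which encode the calcium-dependent adhesion proteins of epithelia, and many genes needed by every cell, for messenger RNA decay and export, ribosome assembly, chromosome segregation and telomere protection. CDH1, the E-cadherin gene and a well-known tumour suppressor gene of epithelia, lies inside the interval but was not among the 40 genes.

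Most promoters in the stretch were rich in CG dinucleotides, the sites of DNA methylation in human promoters. RefSeq promoter windows of GRCh38.p14, from 250 bases before to 50 bases after a transcription start, were at hand for 31 of the 40 genes and gave 42 windows. CDH3 was among the 9 genes with none. The windows held between 3 and 48 CG, with a median of 26, while the median of all 35116 human windows was 14, and 30.1% of all windows held 26 or more. Of the 42 windows, 33 lay above the median of all windows. Their median GC content was 66.3%, against 58.7% over all windows. CG reads the same on both strands and was counted once per site. The windows of 4 genes are printed here with each CG in capitals, because they include genes that lay below WT and genes that lay above it in the knockout lines. NUTF2 (chr16:67846683-67846982) and PRMT7 (chr16:68310769-68311068) had lower levels in both knockout lines, while HAS3 (chr16:69107290-69107589) and CYB5B (chr16:69424369-69424668) had higher ones. All 4 are on the plus strand.
NUTF2: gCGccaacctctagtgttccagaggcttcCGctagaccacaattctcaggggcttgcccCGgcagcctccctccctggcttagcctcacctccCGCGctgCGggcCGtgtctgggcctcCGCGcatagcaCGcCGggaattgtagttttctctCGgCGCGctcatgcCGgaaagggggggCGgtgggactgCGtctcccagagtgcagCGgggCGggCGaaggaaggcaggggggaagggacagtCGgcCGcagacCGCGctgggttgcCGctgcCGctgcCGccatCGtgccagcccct
PRMT7: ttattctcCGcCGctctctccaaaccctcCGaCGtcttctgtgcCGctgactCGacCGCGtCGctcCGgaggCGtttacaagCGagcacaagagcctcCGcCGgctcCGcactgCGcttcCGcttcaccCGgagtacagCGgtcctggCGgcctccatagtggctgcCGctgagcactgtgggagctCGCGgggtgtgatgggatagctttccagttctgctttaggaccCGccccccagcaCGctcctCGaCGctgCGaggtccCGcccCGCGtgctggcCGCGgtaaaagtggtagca
HAS3: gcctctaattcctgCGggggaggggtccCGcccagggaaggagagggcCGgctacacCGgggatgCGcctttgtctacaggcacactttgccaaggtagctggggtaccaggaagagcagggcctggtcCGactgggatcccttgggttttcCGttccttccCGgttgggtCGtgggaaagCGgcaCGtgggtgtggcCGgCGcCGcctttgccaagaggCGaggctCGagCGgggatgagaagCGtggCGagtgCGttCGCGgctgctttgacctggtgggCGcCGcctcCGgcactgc
CYB5B: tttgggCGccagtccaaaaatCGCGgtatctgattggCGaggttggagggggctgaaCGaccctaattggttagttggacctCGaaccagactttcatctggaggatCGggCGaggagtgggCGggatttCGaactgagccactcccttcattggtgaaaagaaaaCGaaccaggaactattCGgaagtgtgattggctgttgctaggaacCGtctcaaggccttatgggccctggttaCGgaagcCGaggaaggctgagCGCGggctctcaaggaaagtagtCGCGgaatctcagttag
The window of NUTF2 held 28 CG and that of PRMT7 held 33. HAS3 had 25 and CYB5B 19, and all 4 lay above the genome-wide median. Other genes with lower levels in both knockout lines had fewer, such as CENPT with 7 and TANGO6 with 16, so nothing is read from the CG count about the direction of a gene. The PRMT7 window shared 172 bases with that of SLC7A6OS, which is read in the opposite direction. By the outer gene ends of the GENCODE annotation, and not by these windows, the starts of both genes lie 5 bp apart.

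Across the 37 genes, RNA levels in both knockout lines lay moderately below those of WT, while CRISPR Control did not lie below WT. Log2 differences are of log2(normalised count + 1), which understates the change of low genes, and their standard errors (SE) come from limma. The median log2 difference from WT was -0.31 in KO 1, -0.38 in KO 2 and 0.05 in CRISPR Control, beside medians of 0.0032, -0.0084 and 0.01 over all 15987 genes tested. The difference was below 0 for 32 of the 37 genes in KO 1, for 31 in KO 2 and for 15 in CRISPR Control. Against CRISPR Control, the medians were -0.31 in KO 1 and -0.44 in KO 2. Between the knockout lines the median was -0.08 (KO 2 minus KO 1). In bulk RNA, fewer cells that express a gene and less RNA of it per cell cannot be told apart.

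Most of the differences lay in a narrow range. In KO 1, 31 of the 37 differences lay between -0.7 and 0 and 1 lay below -1 (CDH3). In KO 2, 28 lay between -0.7 and 0 and 2 below -1 (CDH3 and ESRP2). Above 0 lay 5 in KO 1, up to 0.46 (HAS3), and 6 in KO 2, up to 1.61 (HAS3). The quartiles were -0.38 and -0.19 in KO 1, beside -0.23 and 0.25 over all genes tested. For KO 2 they were -0.53 and -0.16, beside -0.34 and 0.41. Both knockout lines were below WT for 30 genes, whereas 37.9% of all tested genes had this pattern. For 18 of the 30, CRISPR Control was above WT, and for 20 of the 30, KO 2 was below KO 1. The 3 libraries of KO 1 all lay below the 3 of WT for 26 genes (26.4% of all genes tested), and those of KO 2 for 28 (31.9% of all genes tested). The 6 deficient libraries all lay below the 6 competent libraries for 17 genes (12.4% of all genes tested) and all above them for 1 gene, CYB5B (12.3% of all genes tested). They overlapped for the other 19. Since the genes were chosen on these levels, nothing is read from these shares.

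**Figure D1:**
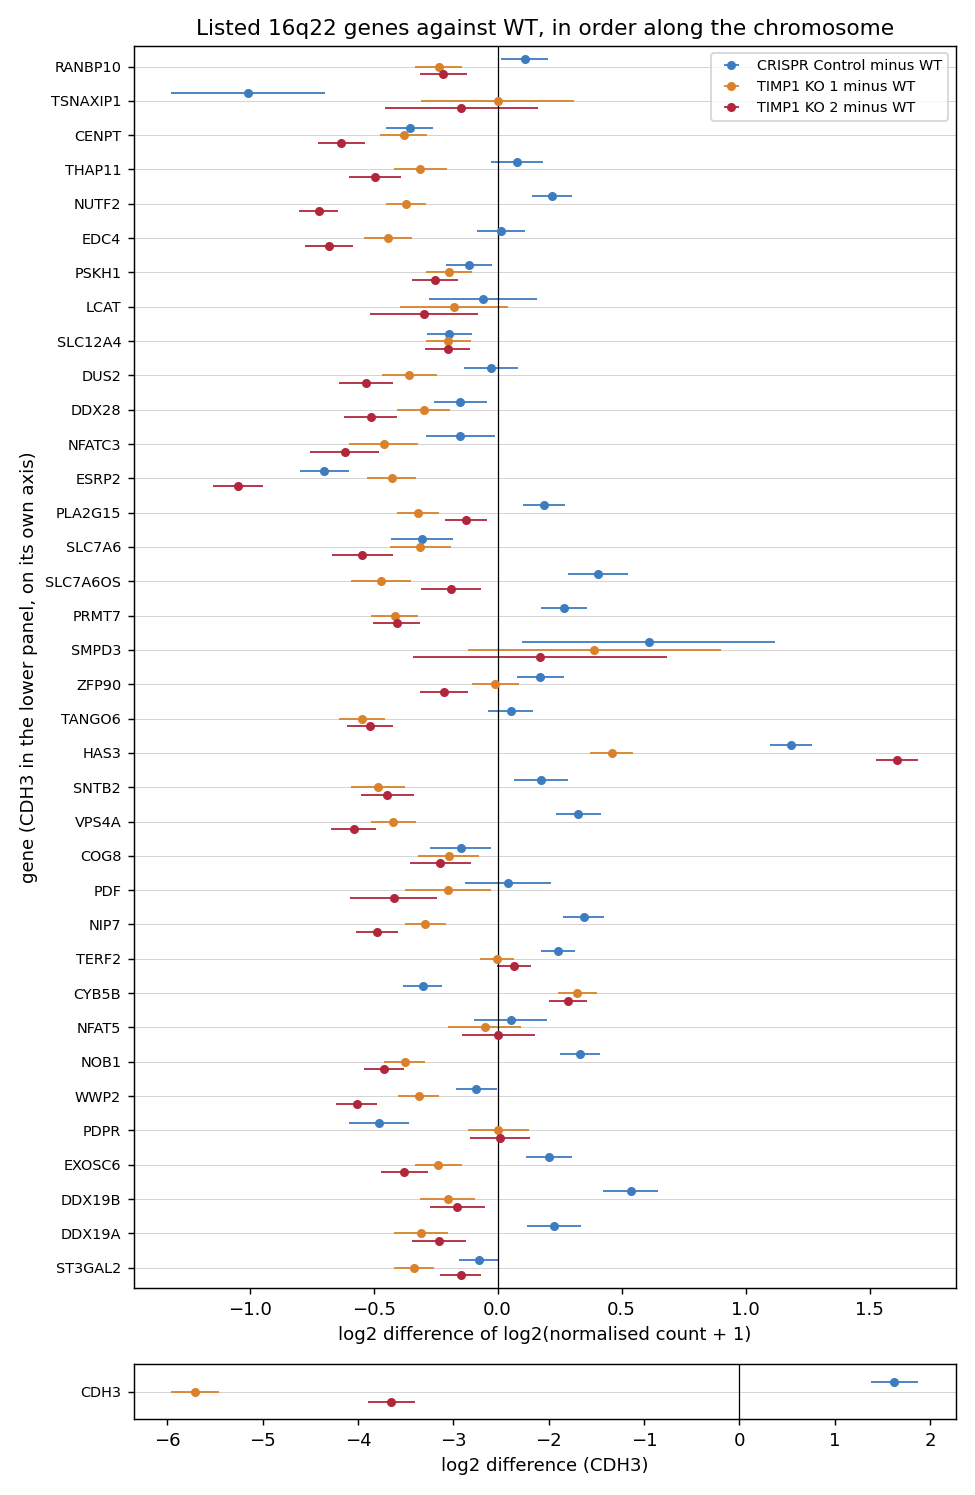
Log2 difference of each of the 37 genes from WT (x axis, log2(normalised count + 1)), in order along the chromosome (y axis), for CRISPR Control, KO 1 and KO 2, with bars of 1 SE over 3 libraries per line. CDH3 is drawn in a panel of its own with a wider axis, and most points of KO 1 and KO 2 lie to the left of 0 between -0.7 and 0.

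The levels on which the genes were chosen are given here library by library. For each library, the median difference of the 37 genes from the WT mean was taken and the median over all tested genes subtracted. Its values were 0.04, -0.03 and 0.02 in the libraries of WT and 0.09, -0.03 and 0.11 in those of CRISPR Control. In KO 1 it was -0.33, -0.31 and -0.28, and in KO 2 it was -0.43, -0.38 and -0.28. All 6 deficient libraries lay below all 6 competent ones, and the ranges of KO 1 and KO 2 overlapped. Since the genes were chosen on these levels, nothing is read from this separation. The means per line were 0.01 ± 0.04 for WT and 0.05 ± 0.08 for CRISPR Control, against -0.31 ± 0.03 for KO 1 and -0.36 ± 0.08 for KO 2 (SD, n = 3 libraries). The titles call the libraries of a line biological replicates without saying what was kept separate, so this spread, and the p-values given for other genes below, may cover technical variation only.

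Of the 37 genes, the adhesion gene CDH3 differed most between lines. CDH3 (ENSG00000062038, chr16:68636189-68727468, plus strand) encodes P-cadherin, an adhesion protein of basal epithelial cells. Its normalised counts were 403, 406 and 471 for WT and 1277, 1288 and 1392 for CRISPR Control, against 6.48, 12.4 and 4.42 for KO 1 and 24.0, 41.2 and 36.3 for KO 2. The 4 lines formed 4 separate groups, with CRISPR Control highest, then WT, and with KO 2 above KO 1 at the bottom. The log2 differences from WT were 1.63 for CRISPR Control, -5.71 for KO 1 and -3.65 for KO 2 (SE 0.25). With a pseudocount of 10 in place of 1, they were -4.64 in KO 1 and -3.33 in KO 2.

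ESRP2, an RNA-binding protein that directs epithelial forms of splicing, stood at 1626, 1441 and 1489 for WT and 1046, 775 and 1008 for CRISPR Control, against 1109.5, 1126 and 1148 for KO 1 and 700.0, 729 and 775 for KO 2. WT lay above all other libraries, KO 1 lay above CRISPR Control, and KO 2 overlapped only the lowest library of CRISPR Control. The log2 differences of -0.70 for CRISPR Control, -0.43 for KO 1 and -1.05 for KO 2 (SE 0.10) thus placed CRISPR Control further below WT than KO 1. For this gene, a level below that of WT was shared by the competent CRISPR Control line.

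Genes of the cell surface and membranes gave a mixed picture. HAS3, which makes the matrix polysaccharide hyaluronan, was above WT in all 3 other lines, with 1649, 1511 and 1603 for WT and 4067, 3085 and 3735 for CRISPR Control, against 2094, 2193 and 2263 for KO 1 and 4978, 4796 and 4769 for KO 2. KO 2 was highest and CRISPR Control second, with KO 1 between them and WT, and none of the 4 lines overlapped. The log2 differences were 1.18 for CRISPR Control, 0.46 for KO 1 and 1.61 for KO 2 (SE 0.09). Those of KO 1 and KO 2 ran opposite to the median of the block. ST3GAL2, a sialyltransferase of the Golgi and the last gene of the block, stood at 2033, 1776 and 1966 for WT and 1771, 1699.7 and 2018 for CRISPR Control, against 1506, 1471 and 1587 for KO 1 and 1677, 1682 and 1844 for KO 2. KO 1 lay below all other libraries, whereas KO 2 overlapped WT and CRISPR Control. Its log2 differences of -0.07 for CRISPR Control, -0.34 for KO 1 and -0.15 for KO 2 (SE 0.08) were small. SLC12A4, a potassium-chloride cotransporter, had 1621, 1418 and 1547 for WT and 1351, 1152 and 1525 for CRISPR Control, against 1333, 1289 and 1368 for KO 1 and 1299.7, 1369 and 1314 for KO 2. Both knockout lines lay below WT but within the range of CRISPR Control, and the differences were nearly equal in the 3 lines, at -0.19, -0.20 and -0.20 in CRISPR Control, KO 1 and KO 2 (SE 0.09).

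The other genes of this kind followed the median more closely. In the order CRISPR Control, KO 1 and KO 2, the log2 differences from WT were -0.30, -0.31 and -0.55 for the amino acid transporter gene SLC7A6 and 0.18, -0.48 and -0.44 for SNTB2, which encodes a syntrophin of the membrane skeleton. For PLA2G15, a lysosomal phospholipase, they were 0.19, -0.32 and -0.13. TANGO6, a gene of protein transport, had 0.05, -0.55 and -0.51, the lowest KO 1 value after CDH3, with line means of 757 ± 36.7 in WT and 785 ± 37.9 in CRISPR Control, against 519 ± 41.6 in KO 1 and 531 ± 41.0 in KO 2 (SD, n = 3). The line means (± SD, n = 3, in the order WT, CRISPR Control, KO 1 and KO 2) were 945 ± 46.7, 778 ± 177, 761 ± 30.2 and 649 ± 61.1 for SLC7A6. For SNTB2 they were 1346 ± 145, 1522 ± 185, 963 ± 90.8 and 989 ± 104, and for PLA2G15 592 ± 13.1, 675 ± 24.0, 474 ± 17.7 and 542 ± 26.0. SLC7A6 was thus the one of these in which CRISPR Control also had a mean below WT. A pair of low genes had overlapping lines throughout. LCAT, the cholesterol-esterifying enzyme of plasma, had means of 89.5 ± 14.4, 86.4 ± 18.5, 80.0 ± 18.8 and 72.7 ± 12.2 in WT, CRISPR Control, KO 1 and KO 2. Libraries of SMPD3, a neutral sphingomyelinase, ran from 4.14 to 23.2 normalised counts per library, both ends being in KO 2, and the line means were 9.0 ± 4.93, 13.2 ± 2.87, 11.3 ± 3.05 and 11.7 ± 10.1.

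Genes of messenger RNA decay and export, of ribosome assembly and of transfer RNA modification are described next, with the nuclear transport gene NUTF2. EDC4, a scaffold of the complex that removes the cap of messenger RNA, stood at 2809, 2518 and 2651 for WT and 3115, 2237 and 2777 for CRISPR Control, against 2002, 1815 and 2059 for KO 1 and 1631, 1691 and 1655 for KO 2. All deficient libraries lay below all competent ones, and KO 2 lay below KO 1. The log2 differences of 0.01 for CRISPR Control, -0.44 for KO 1 and -0.68 for KO 2 (SE 0.10) left CRISPR Control level with WT. Without CRISPR Control replicate 2, which had the lowest of its values, the difference in CRISPR Control was 0.15. NUTF2, which carries the GTPase Ran into the nucleus and whose promoter window is printed above, had 3184, 2841 and 3113 for WT and 3284, 3776 and 3585 for CRISPR Control, against 2263, 2466 and 2342 for KO 1 and 1877, 1989 and 1679.9 for KO 2. Its 4 lines did not overlap and ran from CRISPR Control through WT and KO 1 down to KO 2, with log2 differences of 0.22 for CRISPR Control, -0.37 for KO 1 and -0.72 for KO 2 (SE 0.08).

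DDX19B and DDX19A, neighbouring paralogs near the distal end, encode helicases of messenger RNA export. Their sequences are alike, so reads may have been split between them. DDX19B stood at 342, 292 and 316 for WT and 409, 502 and 470.3 for CRISPR Control, against 273, 299 and 254 for KO 1 and 288, 283 and 275 for KO 2. DDX19A stood at 490.1, 428 and 421 for WT and 496, 514 and 556 for CRISPR Control, against 317, 378 and 387 for KO 1 and 378, 348 and 411 for KO 2. For DDX19A the deficient libraries all lay below the competent ones, whereas for DDX19B KO 1 overlapped WT. Both were above WT in CRISPR Control, and below it in the knockout lines. DDX19B had log2 differences of 0.54 for CRISPR Control, -0.20 for KO 1 and -0.16 for KO 2 (SE 0.11). For DDX19A they were 0.23, -0.31 and -0.24 in the same order (SE 0.11).

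A further 5 genes of RNA processing had means below WT in both knockout lines. In KO 1 and KO 2 the log2 differences were -0.24 and -0.38 for EXOSC6, a subunit of the RNA exosome, and -0.38 and -0.46 for NOB1, the nuclease that trims the small ribosomal RNA. NIP7, a factor of ribosome assembly, had -0.29 and -0.49. DUS2, which modifies transfer RNA, had -0.36 and -0.53. DDX28, a helicase of the mitochondrial ribosome, had -0.30 and -0.51. In CRISPR Control the same 5 genes differed from WT by 0.21, 0.33, 0.35, -0.03 and -0.15, with SE from 0.08 to 0.11. NOB1 and NIP7 were higher there than in WT in all 3 libraries. In the order WT, CRISPR Control, KO 1 and KO 2, the line means (± SD, n = 3) were 1094 ± 124, 1260.2 ± 82.7, 924 ± 40.5 and 842 ± 73.6 for EXOSC6 and 1309 ± 129, 1644 ± 96.6, 1006 ± 9.19 and 949 ± 15.1 for NOB1. Those of NIP7 were 1757 ± 136, 2235 ± 186, 1435 ± 101.5 and 1251 ± 31.4. For the genes with fewer reads, DUS2 and DDX28, they were 491 ± 20.9, 483 ± 38.4, 383 ± 7.93 and 342 ± 51.0 and 394 ± 45.7, 354 ± 19.8, 319 ± 14.3 and 275 ± 7.16. The mean of KO 2 was the lowest of the 4 for all 5 genes.

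Genes of chromosome structure and of transcription differed among themselves. CENPT, which links centromeric chromatin to the kinetochore, stood at 1189.6, 1030.1 and 1134 for WT and 969, 785 and 874 for CRISPR Control, against 831, 830.4 and 915 for KO 1 and 653, 764 and 752 for KO 2. WT was highest, CRISPR Control overlapped KO 1, and KO 2 lay below all other libraries, with log2 differences of -0.35 for CRISPR Control, -0.38 for KO 1 and -0.63 for KO 2 (SE 0.10). TERF2, the telomere-binding protein of shelterin, had one of the smallest spreads of the block, with 1470.3, 1459 and 1461 for WT and 1721, 1677 and 1800.0 for CRISPR Control, against 1403, 1538 and 1444 for KO 1 and 1518, 1548 and 1534 for KO 2. CRISPR Control lay above the other 3 lines and KO 2 slightly above WT, and the log2 differences of 0.24 for CRISPR Control, -0.0026 for KO 1 and 0.07 for KO 2 (SE 0.07) put neither knockout line below WT by more than its SE. The transcription factor gene THAP11 had -0.31 in KO 1 and -0.50 in KO 2, ZFP90 had -0.01 in KO 1 and -0.22 in KO 2, and PRMT7, an arginine methyltransferase whose window is printed above, had -0.42 in KO 1 and -0.41 in KO 2. SLC7A6OS, the neighbour of PRMT7, had -0.47 in KO 1 and -0.19 in KO 2, and both genes were above WT in CRISPR Control, by 0.40 and 0.27. The line means of THAP11 (± SD, n = 3, in the order WT, CRISPR Control, KO 1 and KO 2) were 1821 ± 161, 1930.1 ± 255, 1466 ± 102 and 1296 ± 169, and those of ZFP90 were 900.2 ± 53.9, 1016 ± 85.6, 893 ± 37.0 and 777 ± 87.7. PRMT7 had means of 953 ± 56.9, 1153 ± 150.4, 715 ± 42.2 and 718 ± 14.5 and SLC7A6OS of 290.1 ± 18.0, 386 ± 58.1, 209 ± 10.4 and 255 ± 17.1, so that CRISPR Control was the highest line for both neighbours.

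Signalling and trafficking genes included one gene with almost no difference. NFAT5, the transcription factor of the response to salt stress, had 2466, 2909 and 3009 for WT and 4012, 2383 and 2516 for CRISPR Control, against 2793, 2765 and 2507 for KO 1 and 3162, 2912 and 2356 for KO 2. All 4 lines overlapped, and the log2 differences of 0.05 for CRISPR Control, -0.05 for KO 1 and 0.0022 for KO 2 (SE 0.15) were smaller than the SE. Without CRISPR Control replicate 1, the difference in CRISPR Control was -0.19. Its relative NFATC3, a calcium-responsive transcription factor, differed more, with -0.15, -0.46 and -0.62 in CRISPR Control, KO 1 and KO 2 (SE 0.14). RANBP10, which binds Ran and tubulin and is the first gene of the block, stood at 893, 800.0 and 888 for WT and 1051, 805 and 942 for CRISPR Control, against 703, 727 and 756 for KO 1 and 765, 733 and 718 for KO 2. Its deficient libraries all lay below its competent ones, if closely, with log2 differences of 0.11 for CRISPR Control, -0.24 for KO 1 and -0.22 for KO 2 (SE 0.09). WWP2, a ubiquitin ligase, had -0.32 in KO 1 and -0.57 in KO 2, and the kinase gene PSKH1 had -0.19 in KO 1 and -0.25 in KO 2. The line means (± SD, n = 3, in the same order of lines as above) were 625 ± 40.4, 573 ± 131, 455 ± 50.6 and 407 ± 32.2 for NFATC3, 1159 ± 32.8, 1094 ± 102, 929 ± 37.7 and 781 ± 33.4 for WWP2 and 979.6 ± 28.4, 908 ± 98.2, 857 ± 64.2 and 824 ± 62.7 for PSKH1. WT had the highest mean for all 3.

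VPS4A, the ATPase that takes apart the membrane-cutting machinery ESCRT-III, had 0.32, -0.42 and -0.58 in CRISPR Control, KO 1 and KO 2. Its line means were 1539 ± 53.7 in WT and 1939 ± 262 in CRISPR Control, against 1149.6 ± 47.7 in KO 1 and 1029 ± 59.2 in KO 2 (SD, n = 3). COG8, a subunit of the Golgi tethering complex COG, stood at 419.9, 443 and 429 for WT and 337, 357 and 486 for CRISPR Control, against 377, 347 and 405 for KO 1 and 389, 342 and 370.3 for KO 2. Both knockout lines lay below WT but inside the range of CRISPR Control, with log2 differences of -0.15 for CRISPR Control, -0.20 for KO 1 and -0.23 for KO 2 (SE 0.12). Without CRISPR Control replicate 3, which had the highest value of all, the difference in CRISPR Control was -0.31. A second identifier carried the symbol COG8 and held 0 reads. TSNAXIP1, a gene with little RNA in these cells whose start lies 205 bp from that of RANBP10, had 18.1, 36.4 and 34.3 for WT and 16.4, 10.7 and 14.3 for CRISPR Control, against 29.2, 30.4 and 25.6 for KO 1 and 34.0, 21.9 and 22.2 for KO 2. Here CRISPR Control was the low line, at a log2 difference of -1.01 from WT, and the knockout lines overlapped WT.

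Apart from DDX28, 3 genes of mitochondrial proteins had unlike patterns. CYB5B, a cytochrome b5 of the outer mitochondrial membrane and the gene with the most RNA per length in the block (a mean of 1382 normalised counts per kb of exon, with THAP11 next at 868), had 12139, 13947 and 12855 for WT and 10048, 11481 and 10062 for CRISPR Control, against 16995, 16792 and 14881 for KO 1 and 16335, 15149 and 15876 for KO 2. It was the only gene of the block for which all deficient libraries lay above all competent ones, with log2 differences of -0.30 for CRISPR Control, 0.32 for KO 1 and 0.28 for KO 2 (SE 0.08). PDF, a mitochondrial deformylase whose gene overlaps COG8, had 0.04, -0.20 and -0.42 in CRISPR Control, KO 1 and KO 2 (SE 0.17). PDPR, a regulator of pyruvate dehydrogenase phosphatase with related copies nearby, was level with WT in both knockout lines, at 0.0033 and 0.01, and lower in CRISPR Control, at -0.48 (SE 0.12). In WT, CRISPR Control, KO 1 and KO 2, the means (± SD, n = 3) were 428 ± 3.54, 445 ± 82.4, 381 ± 99.4 and 325 ± 76.4 for PDF and 1511 ± 42.5, 1107 ± 281, 1515 ± 83.2 and 1522 ± 79.1 for PDPR.

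An exon of another annotated gene overlapped 35 of the 40 genes, on the opposite strand for 28 and on the same strand for 18. The strand setting of the counting was not given in the sources used here, so reads of such neighbours cannot be told apart. By the outer gene ends of the GENCODE annotation, protein-coding genes with starts within 1000 bp of each other on opposite strands formed 4 pairs. SLC7A6OS and PRMT7 differed from WT by -0.47 and -0.42 in KO 1, but by -0.19 and -0.41 in KO 2. CENPT and NUTF2, whose transcripts overlap, differed by -0.38 and -0.37 in KO 1 and by -0.63 and -0.72 in KO 2. In CRISPR Control CENPT and NUTF2 had opposite signs, -0.35 and 0.22. RANBP10 and TSNAXIP1 did not move alike in CRISPR Control, as given above. DDX19B and AARS1 had -0.20 each in KO 1 but -0.16 and 0.06 in KO 2. By the RefSeq promoter windows, which mark starts of single transcripts, DUS2 and DDX28 and also COG8 and NIP7 had overlapping windows on opposite strands. DUS2 and DDX28 had -0.36 and -0.30 in KO 1, -0.53 and -0.51 in KO 2 and -0.03 and -0.15 in CRISPR Control. COG8 and NIP7 had -0.20 and -0.29 in KO 1 and -0.23 and -0.49 in KO 2, but opposite signs in CRISPR Control, -0.15 and 0.35.

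Along the block, the lower levels were spread over all of it. The 12 genes from RANBP10 to NFATC3 had a median of -0.30 in KO 1, -0.50 in KO 2 and -0.09 in CRISPR Control. From ESRP2 to CDH3, 8 genes had -0.37, -0.31 and 0.23 in the same order, and the 17 genes from TANGO6 to ST3GAL2 had -0.24, -0.24 and 0.18. KO 2 therefore lay below KO 1 in the proximal stretch and level with it in the distal stretch. CRISPR Control was slightly below WT in the proximal stretch and above WT in the others.

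Beyond the ends of the block the sides differed. The 20 tested genes on the distal side, from FCSK to ZFHX3, had medians of -0.26 in KO 1, with 17 of 20 below 0, and -0.22 in KO 2, with 16 below 0. Their median in CRISPR Control was 0.17, with 5 of 20 below 0. The 20 tested genes on the proximal side, from FHOD1 to GFOD2, had 0.04 in KO 1 (10 of 20 below 0), 0.54 in KO 2 (4 below 0) and 0.01 in CRISPR Control. The lower median thus went on past ST3GAL2. On the proximal side the 20 genes were not alike. Of the 7 tested genes nearest to RANBP10, from CTCF to GFOD2, 6 lay below 0 in KO 1 and 4 in KO 2. This shorter stretch, unlike the 20 genes, had not been planned. Over all genes tested, 49.6% lay below 0 in KO 1 and 50.6% in KO 2. The count in KO 2 was thus near the share of all genes, and where the lower levels end was not tested. The 4 genes below 0 in KO 2 were also below 0 in KO 1, and are named here after their values were seen. The rest of the 7, which were not below 0 in KO 2, are not given. Their log2 differences in KO 1 and KO 2 were -0.25 and -0.42 for CTCF, -0.61 and -0.66 for ACD, -0.11 and -0.47 for ENKD1 and -0.11 and -0.14 for GFOD2. The highest values of the proximal side, such as those of TPPP3 and KCTD19, lay further out. In the rest of chromosome 16, the 530 genes further proximal had medians of -0.09 in KO 1, -0.03 in KO 2 and -0.04 in CRISPR Control, and the 117 genes further distal had -0.13, -0.16 and -0.11.

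The genes inside the block that were left off the list were tested together with all other genes, with earlier results of these data known. There were 12 of them above the minimum, 7 protein-coding. Of the 7, limma with Benjamini-Hochberg adjustment over all 15987 genes called 4 lower in KO 1 than in WT (17.5% of all genes were called lower and 18.0% higher). The other 3 had adjusted p between 0.0994 and 0.631, and only PSMB10 lay above 0. In KO 2, 3 were called lower and 1 higher (27.9% and 27.1% of all genes), and in CRISPR Control, where all 7 lay above 0, 2 were called higher (27.2%). Against CRISPR Control, 5 were lower in KO 1 (31.3% of all genes), and 5 were lower and 1 higher in KO 2 (34.4% and 33.3%). Between the knockout lines, 1 was lower and 2 were higher in KO 2 (20.1% and 18.1%).

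CDH1, the E-cadherin gene (chr16:68737292-68835537, plus strand) next to CDH3, fell most. Its levels were 1151, 1163 and 1254 for WT and 1487, 1344 and 1442 for CRISPR Control, against 125, 158 and 102 for KO 1 and 103, 83.3 and 68.6 for KO 2. Both knockout lines lay far below both competent lines. The log2 difference from WT was -3.23 in KO 1 (SE 0.15, adjusted p = 4.19e-12 by limma) and -3.81 in KO 2 (adjusted p = 2.14e-13), while in CRISPR Control it was 0.26 (adjusted p = 0.15). KO 2 was also lower than KO 1, at -0.59 (adjusted p = 0.00411). ZEB1, a repressor of CDH1 transcription on another chromosome, was at 1226 ± 48.6 in WT and 954 ± 142 in CRISPR Control, against 1288 ± 6.33 in KO 1 and 1258 ± 124 in KO 2 (SD, n = 3). Its log2 difference from WT was 0.07 in KO 1 (adjusted p = 0.613), 0.03 in KO 2 (adjusted p = 0.792) and -0.37 in CRISPR Control (adjusted p = 0.00391).

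UTP4, a factor of small-subunit ribosome assembly (chr16:69131291-69231130, plus strand), had 2743, 2433 and 2583 for WT and 2874, 2666 and 2864 for CRISPR Control, against 1804, 1935 and 1851 for KO 1 and 2036, 1906 and 1744 for KO 2. All deficient libraries lay below the competent ones, with -0.47 in KO 1 (SE 0.08, adjusted p = 7.4e-05), -0.45 in KO 2 (adjusted p = 5.73e-05) and 0.12 in CRISPR Control (adjusted p = 0.206). NQO1, a quinone reductase of the oxidative stress response (chr16:69706996-69726668, minus strand), stood at 3452, 3341 and 3243 for WT and 5252, 5890.1 and 5795 for CRISPR Control, against 2793, 2852 and 2847 for KO 1 and 3299, 3358 and 3479 for KO 2. CRISPR Control was highest, WT and KO 2 overlapped, and KO 1 was lowest. CRISPR Control rose by 0.75 over WT (adjusted p = 1.85e-08) and KO 1 was lower, at -0.24 (adjusted p = 0.00773), while the difference in KO 2 was 0.01 (adjusted p = 0.869).

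AARS1, the alanyl-tRNA synthetase gene (chr16:70251983-70289707, minus strand), had 6415, 5881 and 6179.9 for WT and 7193, 7147 and 7569 for CRISPR Control, against 5354, 5414 and 5289 for KO 1 and 6305, 6329 and 6683 for KO 2. It was higher than WT in CRISPR Control, by 0.25 (adjusted p = 0.00284), and lower in KO 1, at -0.20 (adjusted p = 0.0171). The latter call was lost, with adjusted p between 0.0506 and 0.0726, without WT replicate 1, WT replicate 3, KO 1 replicate 1 or KO 1 replicate 3. In KO 2 the difference was 0.06 (adjusted p = 0.399). ENSG00000261884, a low gene that overlaps PSMB10 on the same strand (chr16:67929614-67936017), was lower in KO 2, at -1.12 (adjusted p = 0.00372). Its mean was 23.1 ± 5.30 in WT and 10.0 ± 1.94 in KO 2 (SD, n = 3). PSMB10, an immunoproteasome subunit gene named here after its values were seen, was the 1 called higher in KO 2, by 0.85 (adjusted p = 0.00301). TMED6 was not called in any comparison.

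**Figure D2:**
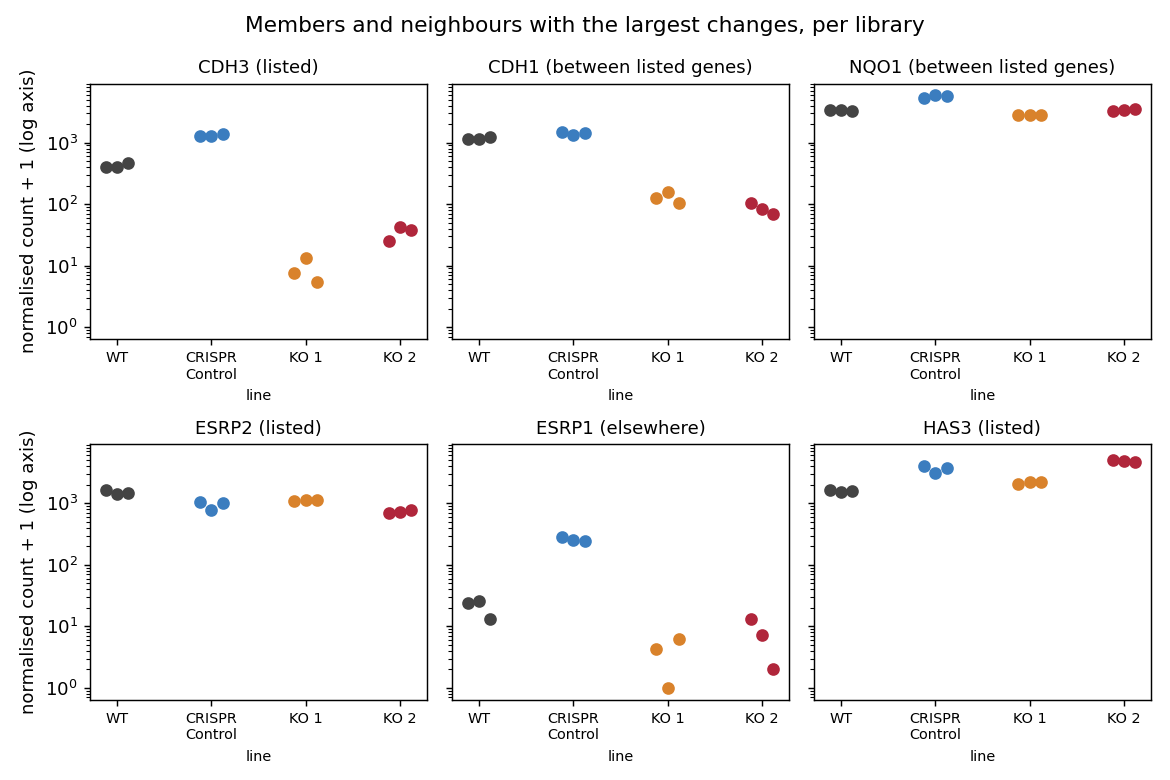
Normalised count + 1 on a log axis (y) in each library of the 4 lines (x) for CDH3, ESRP2 and HAS3 of the block, CDH1 and NQO1 between the listed genes, and ESRP1 elsewhere; each point is a library. CDH3 and CDH1 are lowest in KO 1 and KO 2, while HAS3 is above WT in all 3 other lines.

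Genes elsewhere in the genome whose products work with those of the block were examined in 13 lists of complexes and families, with 75 members, of which 73 were tested and 6 of these lie on chromosome 16. Limma called 29 lower and 9 higher in KO 1 than in WT (17.5% and 18.0% of all genes) and 44 lower and 14 higher in KO 2 (27.9% and 27.1%). In CRISPR Control, 14 were lower and 21 higher (26.3% and 27.2%). The lists were drawn up with earlier results of these libraries known, and several hold genes of cell division and ribosome assembly. They do not hold every member of each complex or family. Of the 14 tested partners of CENPT at the inner kinetochore, 6 fell in KO 1 and 13 in KO 2, with medians of -0.24 and -0.80. All 6 subunits of the clamp loader that works with CHTF8 fell in both lines, with medians of -0.55 and -0.96. Among the RNA partners, 5 of 9 exosome genes fell in KO 1 and 7 in KO 2, where 1 rose. Of 8 factors of ribosome assembly, 4 fell in KO 1, and 6 fell and 1 rose in KO 2. Of 8 decapping genes, 3 fell and 1 rose in KO 1, and 5 fell and 1 rose in KO 2. Of the 5 arginine methyltransferases on the list, 4 fell in KO 1 and 5 in KO 2. However, 3 also fell in CRISPR Control, where the median of the 5 was -0.31 against -0.23 in KO 1. In CRISPR Control, 3 of the CENPT partners fell, and of the clamp loader genes 2 fell and 1 rose.

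Partners of the trafficking and telomere genes gave other counts. These are set beside shares of 18.0% of all genes called higher in KO 1 and 27.1% in KO 2. Of the 6 COG genes on the list, 2 rose in KO 1 and 4 in KO 2, and the rest did not pass the test. Of the 7 partners of VPS4A, 2 rose in KO 1 and 3 in KO 2, and of 3 NFAT relatives 2 rose in each line, again with no other call. Of the 4 shelterin genes on the list, 1 rose in KO 1, and 1 fell and 1 rose in KO 2. ACD, also a gene of shelterin, was not on the list and lay below 0 in both knockout lines, as given above. In CRISPR Control, 1 COG gene, 4 partners of VPS4A, 3 shelterin genes and 1 NFAT relative rose, and 1 of each list fell. With so few genes a list, nothing is read from these counts about a list. WWP1, the paralog of WWP2, was called in neither line, with differences of 0.02 in KO 1 (adjusted p = 0.899) and 0.10 in KO 2 (adjusted p = 0.258).

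ESRP1, the paralog of ESRP2 on chromosome 8, differed more than ESRP2 did. It stood at 22.6, 24.5 and 12.4 for WT and 281, 253 and 246 for CRISPR Control, against 3.24, 0 and 5.30 for KO 1 and 12.4, 6.14 and 1.01 for KO 2. It was higher in CRISPR Control than in WT, by 3.70 (adjusted p = 6.08e-05), where ESRP2 was lower, and it was lower than WT in KO 1, at -2.75 (adjusted p = 0.00183) and in KO 2, at -1.80 (adjusted p = 0.0195). The call in KO 2 rested on single libraries. It was lost without KO 2 replicate 3, at -1.04 (adjusted p = 0.136), without WT replicate 1, at -1.68 (adjusted p = 0.0629), and without WT replicate 2, at -1.62 (adjusted p = 0.0653). HAS2, the other hyaluronan synthase tested, rose in all 3 lines, in which HAS3 was also above WT, from 50.8 ± 3.84 in WT to 225 ± 12.9 in CRISPR Control, then 204 ± 6.73 in KO 1 and 412 ± 70.4 in KO 2 (SD, n = 3). Its log2 differences were 2.12 (adjusted p = 2.6e-10), 1.99 (adjusted p = 1.83e-09) and 2.98 (adjusted p = 2.37e-12).

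Other partners with large changes were named by their difference between KO 2 and CRISPR Control, the pair of lines between which the block differed most. DSCC1, a clamp loader subunit, had 1638 ± 214 in CRISPR Control and 548 ± 44.2 in KO 2, a log2 difference of -1.57 (adjusted p = 5.54e-11). CENPO of the inner kinetochore was lower, at -1.20 (adjusted p = 1.79e-10), as was EXOSC5 of the exosome, at -1.18 (adjusted p = 1.45e-07). These 3 genes also fell against WT, with differences of -0.56, -0.65 and -0.59 in KO 1 and of -1.12, -1.13 and -1.18 in KO 2. In the opposite direction, NFATC2 rose by 1.26 (adjusted p = 6.59e-11), the decapping gene DCP1B by 1.16 (adjusted p = 1e-06) and COG6 by 0.75 (adjusted p = 4.12e-06). Against WT, NFATC2 rose by 1.01 in KO 1 and 0.76 in KO 2, and COG6 by 0.43 and 1.13. DCP1B did not pass the test there, at 0.10 in KO 1 (adjusted p = 0.637) and 0.24 in KO 2 (adjusted p = 0.161), and was lower in CRISPR Control than in WT, at -0.91 (adjusted p = 3.47e-05).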

How the data were processed

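RNA of 12 libraries, 3 for each of the lines WT, CRISPR Control, TIMP1 KO 1 and TIMP1 KO 2, was sequenced, and the sample titles gave the group and replicate number. The authors trimmed reads with Cutadapt, mapped them to GRCh38 with STAR, counted them per gene with featureCounts and divided each library by its DESeq2 size factor, so that the deposited values are a signal of read counts on a common scale. The strand setting and annotation release were not given in the sources used here. This scaling hides any change shared by most genes. Replicates were not pooled. Of the columns, 4 held line means and were not used, and 1 blank line was left out.

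Each library's values were whole multiples of a single step. Dividing by that step gave whole reads for 100% of values within 0.01 reads, and these gave the depths, for which the limits cover counting error only. In KO 2 replicate 3 the step lay too close to 1 for the recovery to be accepted, so tests on reads used the other 11 libraries.

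limma (version 3.58.1, R 4.3.3) was fitted on log2(normalised count + 1) to the 15987 genes with a mean of at least 10, with 4 line means, a trended spread and two-sided p-values adjusted by Benjamini-Hochberg over all of these genes at a threshold of 0.05. Alternatives were a pseudocount of 10, no filter, a minimum mean of 50, equal library totals, edgeR (4.0.16) and DESeq2 (1.42.0) on recovered reads, a replicate block and leaving out each library. Scripts were tested on simulated data. Genes were placed by GENCODE release 44 (99.1% of identifiers matched), and promoter windows came from RefSeq.

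The genes of the block, the partner lists and the rules were chosen with earlier results of these data known. Values in all 12 libraries were printed for the 3 genes at each end of the block, the 6 with the highest mean, and, at a mean of at least 100, the 4 with the largest and the 4 with the smallest spread of line means. Unlisted protein-coding genes were named when called in at least 3 of the 6 pairs of lines, and partners when among the 4 highest and 4 lowest changes between KO 2 and CRISPR Control. Other genes are said to be named after their values were seen, or are markers. PSMB10 and TMED6 are the remaining unlisted genes, and WWP1 is its whole list.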

Additional observations from a re-analysis of the deposited data

Results flagged for a closer look

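NQO1 and AARS1, both inside the block but not on the list, were flagged because their differences from WT had opposite signs in the knockout lines. The knockout lines also differed from each other. In KO 2 the log2 differences from WT were small, at 0.01 for NQO1 and 0.06 for AARS1. NQO1 was 0.25 higher in KO 2 than in KO 1 on the log2 scale (limma, adjusted p = 0.00476), and all 3 KO 2 libraries, at 3299, 3358 and 3479 normalised counts, lay above all 3 KO 1 libraries, at 2793, 2852 and 2847. AARS1 was 0.27 higher in KO 2 than in KO 1 (adjusted p = 0.00238), again with no overlap between the 3 libraries of each line. Against WT, neither gene passed the test in KO 2. No group had more than 3 libraries, so single libraries were not tested for standing apart from their group.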

How the results depend on the processing

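Most alternatives left the medians of the 37 genes within the spread between library medians. With equal library totals, the median of all tested genes moved as well, to 0.09, 0.11 and 0.09 in the 3 comparisons given next, and the median of the block became -0.28 for KO 2 against WT, -0.33 for KO 2 against CRISPR Control and 0.020 for KO 2 against KO 1, a change of sign. Relative to all tested genes, these 3 medians were -0.37, -0.44 and -0.07 with this scaling, against -0.37, -0.43 and -0.07 with the deposited one. When each library was left out in turn, the median ran from -0.33 to -0.28 for KO 1 against WT, from -0.39 to -0.35 for KO 2 against WT and from 0.052 to 0.12 for CRISPR Control against WT, with the highest value without CRISPR Control replicate 2. It ran from -0.34 to -0.26 for KO 1 and from -0.48 to -0.35 for KO 2 against CRISPR Control, and from -0.09 to -0.03 for KO 2 against KO 1, with the value nearest to 0 without KO 1 replicate 1 and -0.05 without KO 2 replicate 3.

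Of the named genes, NFATC2 lost its call between the knockout lines with equal library totals, in edgeR and without KO 1 replicate 2, KO 1 replicate 3 or KO 2 replicate 3. ENSG00000261884 lost its call between KO 1 and CRISPR Control with no filter (adjusted p = 0.0807) and without CRISPR Control replicate 3 (adjusted p = 0.0656). AARS1 gained a call between KO 2 and WT with equal library totals, at 0.16 (adjusted p = 0.0271), and lost its call between KO 2 and CRISPR Control with the same scaling and without CRISPR Control replicate 3 or KO 2 replicate 2. CDH1 gained a call between CRISPR Control and WT in DESeq2, at 0.26. ESRP1 gained a call between the knockout lines in DESeq2, at 1.63, and without KO 2 replicate 3, at 1.71. The causes were not tested.

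Libraries with the same replicate number did not deviate together, with correlations from -0.13 to 0.16 over 18 pairs, so the numbers were not taken to pair the samples. With the replicate block, the medians of the block were unchanged, as the design is balanced, and 5602 genes were called between KO 1 and WT, against 5682 without it. Depth limits the genes with few reads, CHTF8, SMPD3 and TSNAXIP1 above all. Exons of CHTF8 are also overlapped by DERPC on the same strand and by HAS3 on the opposite strand. Whether this lowered the count of CHTF8 was not tested.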

Other observations

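Further out on the proximal side than CTCF lay genes that differed in the direction opposite to the median of the block, named here after their values were seen. TPPP3, a gene of a tubulin-binding protein, had normalised counts of 201, 209 and 221 for WT and 25.9, 45.1 and 46.2 for CRISPR Control, against 974, 949.7 and 968 for KO 1 and 2056, 2341 and 2439.6 for KO 2. It was lower in CRISPR Control than in WT, at -2.45 on the log2 scale (limma, adjusted p = 2.3e-10) and rose in KO 1 by 2.19 (adjusted p = 2.9e-09) and in KO 2 by 3.43 (adjusted p = 2.21e-12). KCTD19 was also lower in CRISPR Control, at -1.53 (adjusted p = 3.79e-07), and rose in KO 1 by 0.75 (adjusted p = 0.00166) and in KO 2 by 2.28 (adjusted p = 1.51e-09). On the distal side, CALB2, a calcium-binding protein gene, fell in all 3 lines, with log2 differences of -1.45 in CRISPR Control (adjusted p = 0.00278), -2.87 in KO 1 (adjusted p = 5.89e-06) and -2.26 in KO 2 (adjusted p = 4.13e-05). CTCF, the chromatin-loop protein gene, which lies between TPPP3 and the block, was lower than WT in KO 1, at -0.25 (adjusted p = 0.00553), and in KO 2, at -0.42 (adjusted p = 1.78e-05).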
